A study of Mus musculus with 4 samples.

Results

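The 7 genes Noxa1, Cyba, Cybb, Ncf1, Ncf4, Rac1 and Rac2 encode subunits or activators of NADPH oxidases. They were picked out by symbol from a deposited table of 20837 genes, and all 7 were found. Of these, Noxa1 was listed because it had the largest fall in the comparison of the 2 genotypes described here, and the others were listed with their values in the same comparison known. The differences between genotypes are therefore given for these 7 genes as a description, without p-values.

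Libraries came from mouse spleen and are labelled as regulatory T (Treg) cells, a CD4 lineage defined by its transcription factor Foxp3. The 2 cKO libraries carry the genotype Foxp3YFP-CreKmt2dfl/fl, in which Cre driven by Foxp3 deletes the loxP-flanked histone methyltransferase gene Kmt2d in cells that express Foxp3. The 2 WT libraries carry Foxp3YFP-CreKmt2d+/+, so the Cre allele is shared by both groups. Age and sex are not given in the fields for these cells, and nothing in the labels ties each library to its own mouse, so the p-values below measure the spread between libraries, which may be technical. The extraction text describes bone marrow-derived macrophages of WT and TGM2KO mice, against the tissue, cell type and genotype fields. This matters for genes of a phagocyte enzyme, so marker levels are given beside the results.

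NADPH oxidases move electrons from NADPH across a membrane to oxygen and so make superoxide. The best known form, in neutrophils and macrophages, has a membrane core of gp91phox (Cybb) and p22phox (Cyba). It is switched on when cytosolic proteins, among them p47phox (Ncf1) and p40phox (Ncf4), and a Rac GTPase join the core. NOXA1 is best known as the activator of NOX1, together with the organizer NOXO1, in epithelial and vascular cells.

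RefSeq promoter windows, from 250 bases before to 50 bases after the annotated start, were matched for 4 of the 7 genes, Noxa1, Cyba, Cybb and Ncf1. Those of Noxa1 and Ncf1 are shown because these genes had the largest differences between the genotypes in either direction, and that of Cybb because it encodes the catalytic subunit. All 3 are written 5′ to 3′ on the minus strand of GRCm38.p6, the assembly also called mm10, with every match to the 6 motifs searched in capitals.
Noxa1, chr2:25095156-25095455: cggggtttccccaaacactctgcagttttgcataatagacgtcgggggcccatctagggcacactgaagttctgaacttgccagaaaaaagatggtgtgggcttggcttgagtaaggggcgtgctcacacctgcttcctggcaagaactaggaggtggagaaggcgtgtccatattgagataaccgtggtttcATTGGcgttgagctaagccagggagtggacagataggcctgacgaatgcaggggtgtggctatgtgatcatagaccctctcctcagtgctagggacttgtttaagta
Ncf1, chr5:134229576-134229875: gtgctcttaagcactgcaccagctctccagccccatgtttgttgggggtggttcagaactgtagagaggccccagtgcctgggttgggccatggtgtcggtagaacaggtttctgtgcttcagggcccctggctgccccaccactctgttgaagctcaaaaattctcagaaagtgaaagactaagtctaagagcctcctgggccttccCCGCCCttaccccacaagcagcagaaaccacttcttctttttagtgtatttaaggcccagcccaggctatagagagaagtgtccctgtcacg
Cybb, chrX:9469275-9469574: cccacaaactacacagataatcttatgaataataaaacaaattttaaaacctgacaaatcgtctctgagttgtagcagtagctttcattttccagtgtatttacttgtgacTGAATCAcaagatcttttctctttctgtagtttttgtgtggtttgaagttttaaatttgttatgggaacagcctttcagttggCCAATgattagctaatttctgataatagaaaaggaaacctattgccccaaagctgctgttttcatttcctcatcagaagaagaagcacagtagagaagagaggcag

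The motifs were searched on both strands. The Noxa1 window holds 1 match to CCAAT, on the reverse strand 57 bases before the start, and 37.4% of 32851 promoter windows hold this motif. The Cybb window holds CCAAT 56 bases before the start and TGAATCA 139 bases before it. The latter matches the pattern TGANTCA, searched for AP-1 with any base at N and so looser than a strict site, and 7.8% of windows hold this pattern. The Ncf1 window has 1 GC box, GGGCGG, on the reverse strand and the Cyba window has 2, against a share of 35.7% of windows with at least 1. The letters of the ETS core GGAAGT (23.8% of windows), the forkhead motif TGTTTAC (3.6%) and TATAAA (13.6%) are in none of the 4 windows. CpG dinucleotides number 8 in the Noxa1 window, 9 in Cyba, 3 in Ncf1 and 1 in Cybb, beside a median of 7 over all windows.

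Total counts ran from 28442416 to 35560491 per library, and 13861 genes passed a filter on low counts. Values below are CPM, counts scaled to library size with TMM factors, and 1 count corresponds to 0.0288 to 0.0344 CPM. The Treg gene Foxp3 measured 170 and 180 CPM in the cKO libraries and 278 and 250 CPM in the WT libraries. Treg markers differed in direction. The 9 listed, Foxp3 among them, summed to 2718 and 3353 CPM in cKO and 3998 and 3182 CPM in WT, which overlap. Both cKO libraries lay above both WT libraries for 2 of the 9 and below for 4. This held for 35.1% and 30.9% of all tested genes. Summed over 11 pan T cell markers the level was 4489 and 4874 CPM in cKO and 5833 and 5594 CPM in WT. The 14 macrophage and monocyte markers summed to 1071 and 884 CPM in cKO and 675 and 924 CPM in WT, so that T cell transcripts were the more abundant in every library. The 13 neutrophil markers summed to 653 and 1384 CPM in cKO, against 80.4 and 206 CPM in WT. Counts over the whole Kmt2d gene, which can include exons outside the deleted part and so check nothing, were 836 and 793 CPM in cKO and 721 and 704 CPM in WT.

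Noxa1 (gene number 241275, mm10 chromosome 2, 25085667 to 25095205, minus strand) was nearly undetected in the cKO libraries. It had 1 and 0 counts in cKO 1 and cKO 2, against 142 and 132 counts in WT 1 and WT 2. On the scaled level this is 0.0344 and 0 CPM in cKO and 4.09 and 4.33 CPM in WT, where the 2 libraries differ little. In bulk samples such as these, fewer cells that express a gene and less RNA per cell cannot be told apart. The ratio of cKO over WT counts, corrected for depth, was 0.00374, with an exact 95% interval of 9.43e-05 to 0.0210 that covers counting error only. The fitted log2 fold change was -7.75 (SE 0.47) and depends on the small count that edgeR adds to each library, being -5.78 with a prior count of 2. Without cKO 1, which holds the only count, the WT mean was 48.5 times the level of 3 counts in cKO 2. This is a lower bound on the difference only if the level behind the 0 counts of cKO 2 lay under 3 counts.

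**Figure D1:**
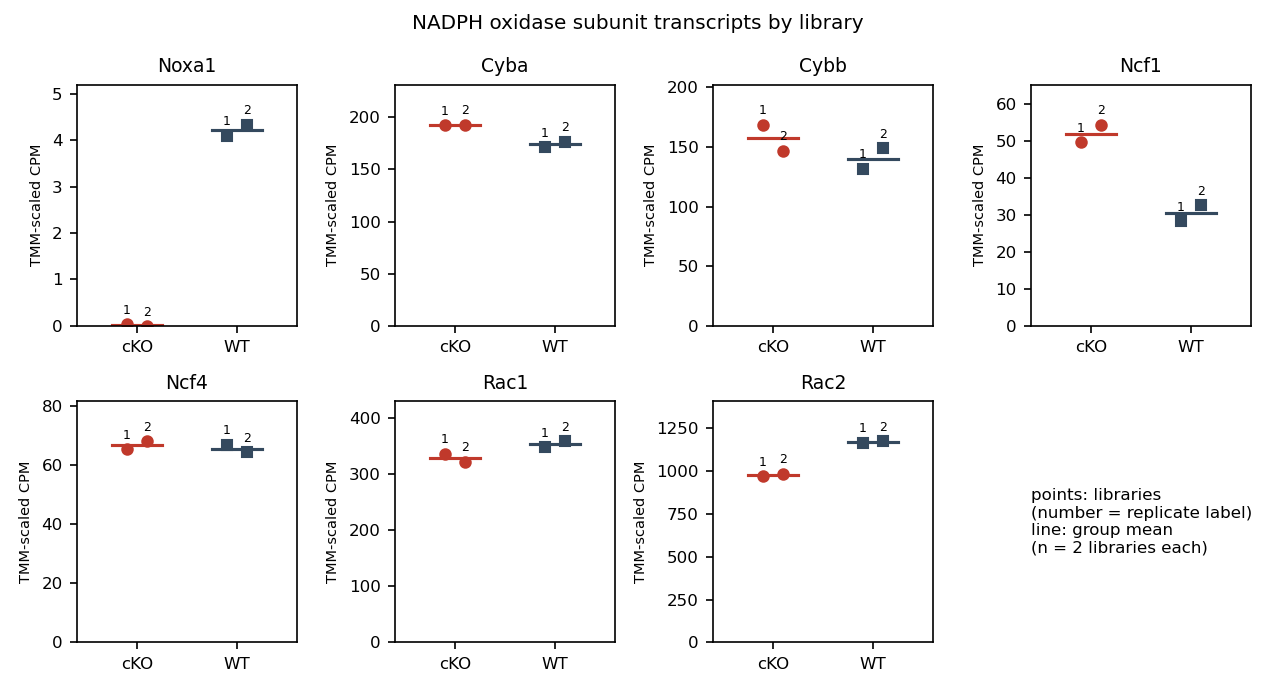
TMM-scaled CPM of the 7 oxidase genes in each library, cKO left and WT right, with the replicate label beside each point and the group mean of 2 libraries as a line. Noxa1 lies at 0.0344 and 0 CPM in cKO and above 4 CPM in both WT libraries, Ncf1 is higher in both cKO libraries, Rac2 is lower in both, and the points of Cybb and Ncf4 overlap between the groups.

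Few other genes came near this pattern, under limits that take in the values of Noxa1 itself. Because Noxa1 was listed for its fall, its own place among them is no result. Of 11300 genes with at least 100 counts over the WT libraries, 2 had at most 1 count over the cKO libraries, Noxa1 and the unnamed gene Gm42031. Gm42031 had 1 and 0 counts in cKO and 90 and 143 counts in WT. In the opposite direction, 0 of 11405 genes with at least 100 counts over the cKO libraries had at most 1 count over the WT libraries. Among 923 genes with a WT mean between 3 and 6 CPM, the median cKO mean was 105% of the WT mean, and 4 genes lay under 10%, Noxa1 the lowest.

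Profiles of log2 CPM over the 4 libraries, each centred on its own mean, were compared by distance. Among the genes ranked, the nearest to Noxa1 were Sp6, at a distance of 1.77 log2 units, Tmem63c at 2.25 and Osgin1 at 2.47. The ranking left out the unnamed gene Gm42031, whose fall was closer to that of Noxa1. The fitted log2 fold change was -7.53 for Gm42031 and -7.75 for Noxa1, against -4.37 for Sp6. Sp6, a zinc finger gene, measured 0.756 and 1.48 CPM in cKO and 24.6 and 22.7 CPM in WT. Osgin1, a gene induced by oxidative stress, measured 2.34 and 3.16 CPM in cKO and 31.6 and 28.6 CPM in WT. These distances are far above those of the nearest genes ranked for the other 6 members, which run up to 0.0801 (Gng12 for Ncf1). With 4 libraries in 2 groups, this measure weighs mainly the difference between the groups.

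The genes next to Noxa1 differed less between the genotypes. Entpd8, on the opposite strand, shares 50 of the 1617 exon bases of Noxa1 and had 0 and 2 counts in cKO and 0 and 0 in WT. Of 26 genes in the table within 250 kb of Noxa1, 18 were tested, with a median log2 fold change of -0.02, beside 0.0003 over all genes tested. In edgeR's quasi-likelihood test 3 of the 18 were lower in cKO, 0 were higher and 15 did not pass, while 15.1% of all tested genes were lower. Nsmf, which lies downstream of Noxa1 beyond Entpd8, fell to 13.6 and 14.7 CPM in cKO, against 22.2 and 20.8 CPM in WT (log2 fold change -0.60, SE 0.08, adjusted p = 0.00629). Rnf208 had 3 and 7 counts in cKO and 21 and 15 counts in WT (log2 fold change -1.79, SE 0.45, adjusted p = 0.0298). The phospholipase gene Pnpla7 differed by -0.17 (SE 0.05, adjusted p = 0.0476). Nsmf kept its call without any single library. The other 2 lost their calls whichever library was left out: Rnf208 and Pnpla7 had edgeR adjusted p values of 0.176 and 0.225 without cKO 1, 0.0853 and 0.192 without cKO 2, 0.170 and 0.182 without WT 1, and 0.0914 and 0.108 without WT 2. With DESeq2 they gave adjusted p = 0.278 and 0.181. Nrarp, upstream of Noxa1, measured 5.16 and 5.18 CPM in cKO and 7.29 and 6.56 CPM in WT and did not pass.

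**Figure D2:**
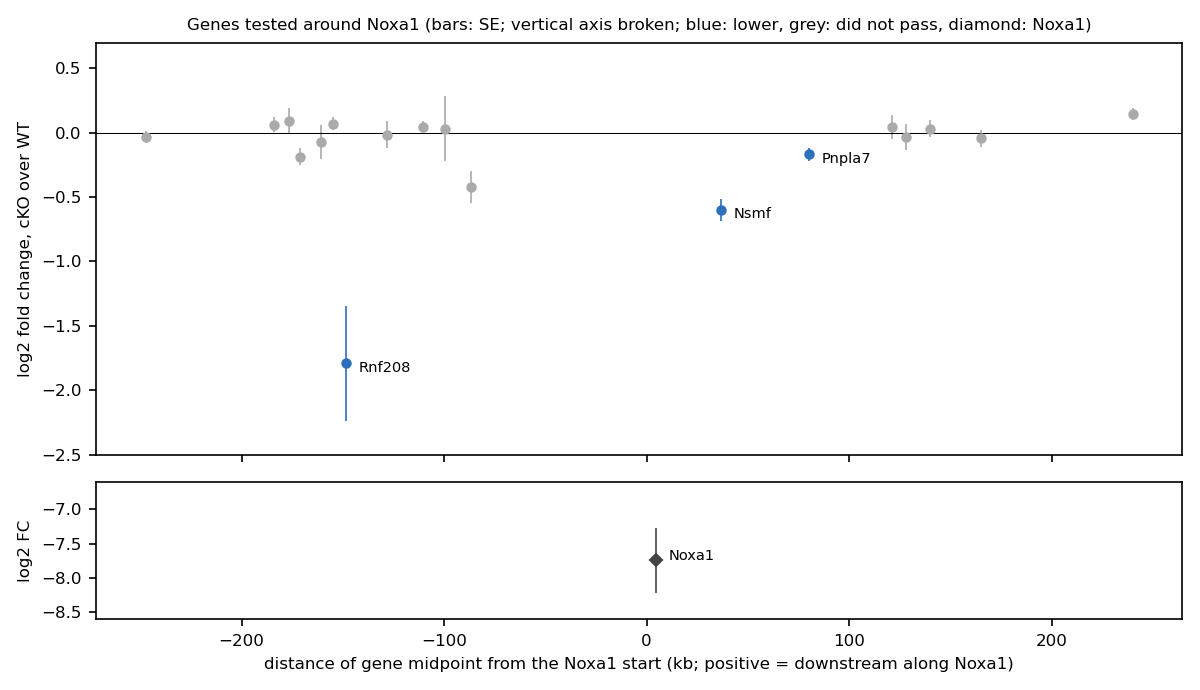
Log2 fold change of cKO over WT (bars are SE) for Noxa1 and the 18 genes tested within 250 kb of it, by the distance of each gene's midpoint from the Noxa1 start in kb. The vertical axis is broken: Noxa1 lies at -7.75, while the neighbours lie between -1.79 and 0.14, and the 3 in blue passed the test.

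Between subunits, levels were compared as counts per kb of annotated exon, scaled to the same sum in each library as TPM are. On this scale Noxa1 averaged 0.0380 ± 0.0538 in cKO and 9.12 ± 0.412 in WT (SD, n = 2 each). The ratio of Noxa1 to Noxo1 per length was 0.0887 and 0 in cKO, against 4.13 and 4.73 in WT. The usual partners of NOXA1 were low in all libraries. Noxo1, the organizer, averaged 0.998 ± 0.199 in cKO and 2.06 ± 0.103 in WT, and Nox1, the catalytic subunit, had 6 and 11 counts in cKO and 14 and 16 counts in WT. The highest levels among the 7 genes were those of Rac2, 1111 ± 11.1 in cKO and 1318 ± 13.9 in WT, and of Cyba, 654 ± 11.3 in cKO and 586 ± 15.7 in WT. Below them stood Rac1, with 259 ± 12.6 in cKO and 275 ± 7.21 in WT, and Ncf4, with 117 ± 1.25 in cKO and 114 ± 2.58 in WT. Cybb averaged 96.0 ± 11.1 in cKO and 84.6 ± 7.66 in WT, and Ncf1 50.03 ± 2.30 in cKO and 29.1 ± 3.04 in WT. The order of the 7 was the same in both groups, and no 2 neighbours in it had overlapping libraries within a group. Exon lengths are those of all annotated transcripts together, so the order depends on the annotation where a gene has long, rarely used exons.

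**Figure D3:**
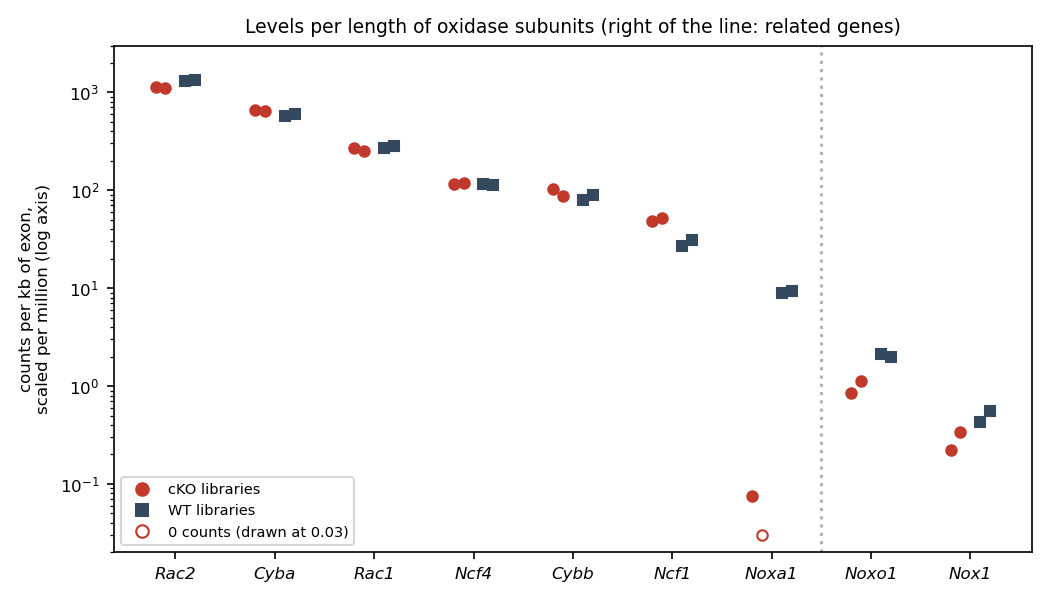
Counts per kb of exon on the TPM scale, with a log axis, for the 7 oxidase genes and, right of the dotted line, Noxo1 and Nox1, with the 2 cKO libraries left of the 2 WT libraries for each gene. The open point marks 0 counts of Noxa1 in cKO 2. Noxa1 lies at 0.0761 and 0 in cKO, below Noxo1, and at 8.83 and 9.41 in WT, above it.

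The membrane core differed little between the genotypes. Cyba (gene number 13057, chromosome 8) measured 192 and 193 CPM in cKO and 171 and 177 CPM in WT, a log2 fold change of 0.15 (SE 0.05). Both cKO libraries lay above both WT libraries. Cybb (gene number 13058, chromosome X) measured 169 and 147 CPM in cKO and 132 and 149 CPM in WT, a log2 fold change of 0.17 (SE 0.09) with overlapping groups. Within either group the spread of Cybb, with an SD of 15.4 CPM in cKO and 12.0 CPM in WT, was near the size of the difference between the groups. From highest to lowest the libraries had the order cKO 1, WT 2, cKO 2 and WT 1, which is also their order by summed macrophage and monocyte markers. This match rests on Lyz2, a marker that neutrophils express too: without it the order by sum is WT 2, cKO 1, WT 1 and cKO 2. The part of such cells in the Cybb level was not tested.

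Cybc1, a chaperone known to be needed for the gp91phox and p22phox heterodimer, measured 82.4 and 81.1 CPM in cKO and 65.6 and 67.0 CPM in WT. It rose by a log2 fold change of 0.30 (SE 0.05, edgeR adjusted p = 0.00846), a call that ends without cKO 1 (edgeR adjusted p = 0.0513). Per length, Cyba stood 6.38 and 7.34 times as high as Cybb in cKO and 7.27 and 6.64 times as high in WT, so the balance of the core pair overlapped between the groups.

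Of the cytosolic subunits, Ncf1 was higher in the cKO libraries and Ncf4 was not. Ncf1 (gene number 17969, chromosome 5, 134220053 to 134229628) measured 49.5 and 54.3 CPM in cKO and 28.3 and 32.6 CPM in WT, a log2 fold change of 0.77 (SE 0.09). The groups did not overlap. Gtf2ird2, on the opposite strand, shares 408 of the 3663 exon bases of Ncf1, and it measured 18.9 and 15.9 CPM in cKO and 17.6 and 19.0 CPM in WT. Ncf4 (gene number 17972, chromosome 15) measured 65.3 and 68.1 CPM in cKO and 66.9 and 64.4 CPM in WT, a log2 fold change of 0.02 (SE 0.05) with overlapping groups.

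Per length, the ratio of Ncf1 to Ncf4 was 0.418 and 0.440 in cKO, against 0.233 and 0.279 in WT. Ncf1 was thus higher in cKO relative to its partner Ncf4.

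Neutrophils, eosinophils, macrophages, dendritic cells and B cells carry this oxidase too, and markers of several cell types were higher in cKO. For comparison with the counts below, 16.5% of all tested genes were higher in edgeR's test. All 13 neutrophil markers were higher in cKO in edgeR's test, Ly6g among them with 38 and 138 counts in cKO and 2 and 1 counts in WT. The summed neutrophil level ran from 653 to 1384 CPM in cKO and from 80.4 to 206 CPM in WT, and within each group the library with more of it also had more Ncf1. The sums below of B cell, eosinophil, basophil and mast cell, and NK and CD8 T cell markers had this order too. Those of macrophages and monocytes and of both kinds of dendritic cells did not. With 2 libraries a group, little can be read from such an order. Of 14 macrophage and monocyte markers, Lyz2, which neutrophils also express, was higher and 13 did not pass, and without Lyz2 the list summed to 487 and 340 CPM in cKO and to 414 and 638 CPM in WT. Of 7 conventional dendritic cell markers 3 were higher and 4 did not pass, with sums of 135 and 113 CPM in cKO and 74.6 and 85.9 CPM in WT. Of 9 B cell markers 2 were higher and 7 did not pass, with sums of 157 and 277 CPM in cKO and 118 and 144 CPM in WT. Of 5 eosinophil markers 3 were higher and 2 did not pass, with sums of 26.4 and 35.5 CPM in cKO and 16.5 and 24.4 CPM in WT. Of 6 plasmacytoid dendritic cell markers 3 were higher and 3 did not pass, with sums of 158 and 172 CPM in cKO and 139 and 138 CPM in WT. All 6 basophil and mast cell markers were higher, with sums of 19.4 and 33.9 CPM in cKO and 1.56 and 3.61 CPM in WT. Of 7 markers of NK and CD8 T cells 6 were higher and 1 did not pass, with sums of 165 and 178 CPM in cKO and 113 and 129 CPM in WT. No marker in these 8 lists was at 0 in any library. The part of these cells in the levels of Ncf1, Cyba and Cybb was not tested.

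**Figure D4:**
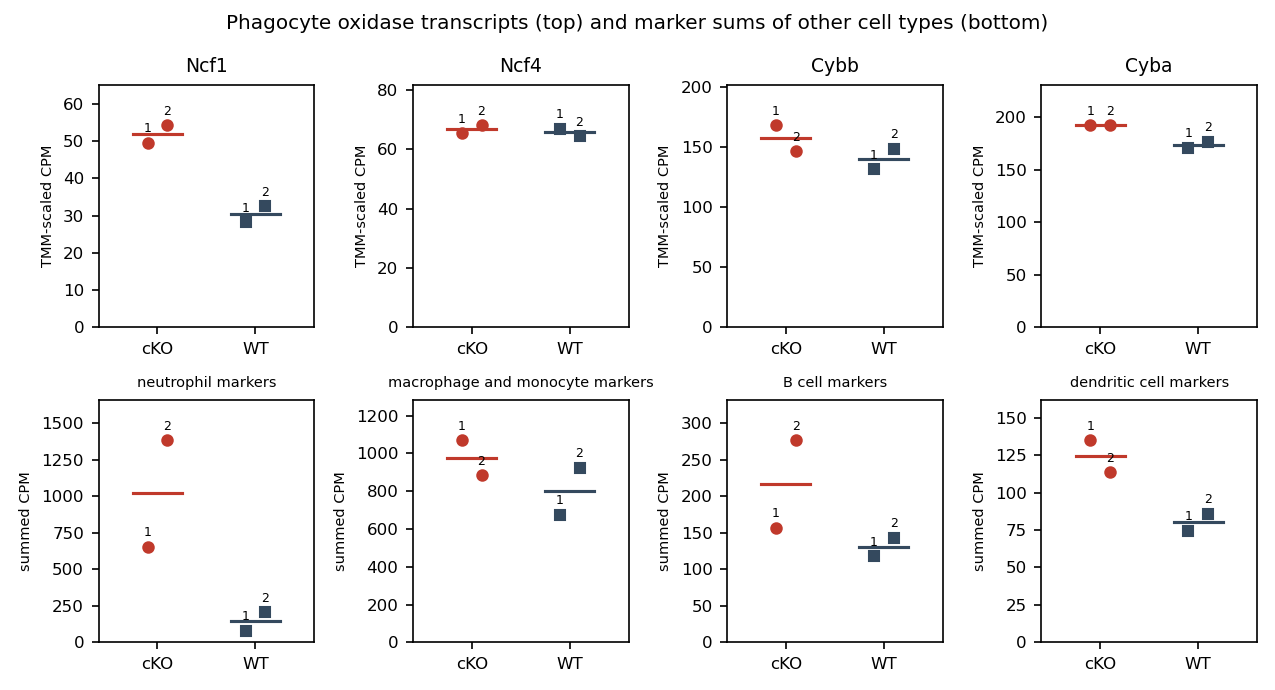
TMM-scaled CPM of Ncf1, Ncf4, Cybb and Cyba (top) and summed CPM of marker lists of neutrophils, macrophages and monocytes, B cells and dendritic cells (bottom) in each library, cKO left and WT right, with replicate labels and group means. Ncf1, Cyba and the neutrophil, B cell and dendritic cell sums are higher in both cKO libraries, while Ncf4, Cybb and the macrophage sum overlap between the groups.

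The Rac GTPases, which complete the active oxidase and also steer the actin cytoskeleton, were somewhat lower in the cKO libraries. Rac2, the form typical of blood cells (gene number 19354, chromosome 15), measured 970 and 982 CPM in cKO and 1163 and 1173 CPM in WT, a log2 fold change of -0.26 (SE 0.05). The libraries of a group lay close together and the groups did not overlap. Rac1, expressed in most tissues (gene number 19353, chromosome 5), measured 336 and 322 CPM in cKO and 348 and 359 CPM in WT, a log2 fold change of -0.10 (SE 0.05). Its groups did not overlap either, but the gap between them was close to the spread within them. Daglb, on the opposite strand, shares 2309 of the 4496 exon bases of Rac1, and it measured 13.1 and 13.9 CPM in cKO and 17.5 and 17.6 CPM in WT. Rac2 took 74.2% and 75.2% of the counts of Rac1, Rac2 and Rac3 in cKO and 76.9% and 76.5% in WT. Pan T cell markers were lower in the same libraries, 8 of 11 in edgeR's test with 3 not passing. Among all tested genes 15.1% were lower. The median log2 fold change of these markers was -0.32, and their part in the Rac2 level was not tested.

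All 7 genes passed the filter on low counts, Noxa1 through its WT counts alone. At an adjusted p under 0.05 in edgeR's test, 3 of the 7 differed, Ncf1 higher and Noxa1 and Rac2 lower, where 31.6% of all tested genes did, 16.5% higher and 15.1% lower. The groups did not overlap for 5 of the 7, 2 with cKO above WT and 3 with cKO below, where this held for 66.0% of all tested genes, 35.1% above and 30.9% below. Since the genes were chosen with this comparison known, nothing is read from these counts. The median log2 fold change of the 7 was 0.02, beside 0.0003 over all genes tested. Ncf4, which sets this median, changed sign to -0.0055 without WT 2 and to -0.0099 without cKO 2. The value of Cybb ran from 0.06 without cKO 1 and 0.08 without WT 1 to 0.26 without either of the other 2 libraries.

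The remaining genes of the oxidase family split. Of 12 listed, 9 were in the table and 6 were tested, of which 2 were higher, Cybc1 among them, Noxo1 was lower, and Rhog, Rac3 and Nox1 did not pass. Of all tested genes, 16.5% were higher and 15.1% lower. Noxo1, whose product anchors the complex that NOXA1 activates, had 21 and 34 counts in cKO and 64 and 52 counts in WT. It fell in edgeR's test (log2 fold change -1.04, SE 0.25, adjusted p = 0.0262). It did not pass with DESeq2 (adjusted p = 0.189), and leaving out cKO 1, cKO 2, WT 1 or WT 2 in edgeR gave adjusted p values of 0.143, 0.0567, 0.131 and 0.0853 in that order. Without cKO 1 the list had 1 call. Rac3 had 40 and 39 counts in cKO and 23 and 22 counts in WT (log2 fold change 0.85, SE 0.26). Rhog measured 161 and 173 CPM in cKO and 188 and 176 CPM in WT (log2 fold change -0.13, SE 0.06). Nox3, Duox2 and Duoxa1 had between 0 and 2 counts in each library and were not tested.

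Of 26 tested genes listed as activators of the oxidase, kinases among them, or regulators of Rac, 10 fell, 1 rose and 15 did not pass. Under upper-quartile scaling 8 fell and 3 rose. Over all tested genes, 15.1% fell and 16.5% rose. The median log2 fold change of the list was -0.11. The 10 that fell encode products that act on Rac in opposite directions. They were exchange factors (Vav1, Vav2, Tiam1 and Prex1), proteins with a GTPase-activating domain (Arhgap25, Chn2, Bcr and Abr) and protein kinase C genes (Prkca and Prkcb). Vav2, a guanine nucleotide exchange factor that loads Rac with GTP, measured 37.0 and 39.0 CPM in cKO and 75.1 and 73.9 CPM in WT (log2 fold change -0.97, SE 0.05, edgeR adjusted p = 0.00205). Tiam1, another exchange factor for Rac, measured 108 and 124 CPM in cKO and 217 and 194 CPM in WT (log2 fold change -0.83, SE 0.09, edgeR adjusted p = 0.00457). The protein kinase C gene Prkca measured 200.2 and 206 CPM in cKO and 286 and 259 CPM in WT (log2 fold change -0.42, SE 0.06, edgeR adjusted p = 0.00725). The gene that rose was Racgap1, a GTPase-activating protein that also works in cell division, with 88.4 and 82.6 CPM in cKO and 42.3 and 53.5 CPM in WT (log2 fold change 0.84, SE 0.11, edgeR adjusted p = 0.00595). These 4 kept their calls without any single library, while the list had 7 calls without WT 1 and 8 without each of the others.

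Of 23 tested genes that remove superoxide and peroxide, 7 rose, 2 fell and 14 did not pass, with 9 and 1 under upper-quartile scaling, and the median log2 fold change was 0.16. Beside this, 16.5% of all tested genes rose and 15.1% fell. Catalase (Cat) measured 128 and 124 CPM in cKO and 93.1 and 101 CPM in WT (log2 fold change 0.37, SE 0.06, edgeR adjusted p = 0.00874). Thioredoxin (Txn1) measured 106 and 108 CPM in cKO and 76.8 and 86.0 CPM in WT (log2 fold change 0.40, SE 0.07, edgeR adjusted p = 0.00966). The glutathione reductase gene Gsr rose by 0.29 (SE 0.05, edgeR adjusted p = 0.00967), a call that ends without WT 1 (0.0571) or cKO 2 (0.0666). Gpx4, which reduces lipid peroxides, fell to 59.3 and 68.3 CPM in cKO, against 88.9 and 91.1 CPM in WT (log2 fold change -0.49, SE 0.08, edgeR adjusted p = 0.00781). The other that fell was Sod1, the cytosolic superoxide dismutase (log2 fold change -0.18, SE 0.05, edgeR adjusted p = 0.0372), which did not pass without WT 1 (0.104), WT 2 (0.145), cKO 1 (0.195) or cKO 2 (0.125). The list had 4 calls without WT 1 or cKO 2 and 6 without either of the others.

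Among genes that supply NADPH, the substrate of the oxidase, 13 were tested, of which 4 rose, 1 fell and 8 missed the threshold, with a median log2 fold change of 0.09. The shares over all tested genes were 16.5% rising and 15.1% falling. G6pdx, the entry enzyme of the pentose phosphate pathway, measured 76.6 and 68.5 CPM in cKO and 50.9 and 52.6 CPM in WT (log2 fold change 0.49, SE 0.07, edgeR adjusted p = 0.00642). Pgd, the next NADPH-forming enzyme of that pathway, rose by 0.35 (SE 0.07, edgeR adjusted p = 0.0130), and did not pass without WT 1 (0.0534). Nnt, the mitochondrial transhydrogenase, measured 51.7 and 48.0 CPM in cKO and 28.1 and 32.4 CPM in WT (log2 fold change 0.72, SE 0.08, edgeR adjusted p = 0.00508). Aldh1l1, a folate enzyme, had 82 and 119 counts in cKO and 50 and 43 counts in WT (log2 fold change 1.14, SE 0.20, edgeR adjusted p = 0.0104), with no call without WT 1 (0.0556) or cKO 2 (0.0596). H6pd, the counterpart of G6pdx in the endoplasmic reticulum, fell by 0.33 (SE 0.07, edgeR adjusted p = 0.0158), and did not pass without WT 1 (0.0857) or cKO 1 (0.0871). Without WT 1 the list had 2 calls.

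Electron transfer by the oxidase leaves charge behind, which ion channels and transporters offset. Of 4 such genes, 2 fell and 2 missed the threshold, where 15.1% of all tested genes fell and 16.5% rose. Hvcn1, the voltage-gated proton channel that works with the phagocyte oxidase, measured 105 and 118 CPM in cKO and 144 and 151 CPM in WT (log2 fold change -0.41, SE 0.07, edgeR adjusted p = 0.0105), and kept its call without any single library. The potassium channel gene Kcnn4 fell by 0.26 (SE 0.07, edgeR adjusted p = 0.0382), and did not pass without WT 1 (0.0537), WT 2 (0.153) or cKO 1 (0.165), which leaves 1 call in the list in each case. The chloride exchanger gene Clcn3 did not pass (log2 fold change 0.06).

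**Figure D5:**
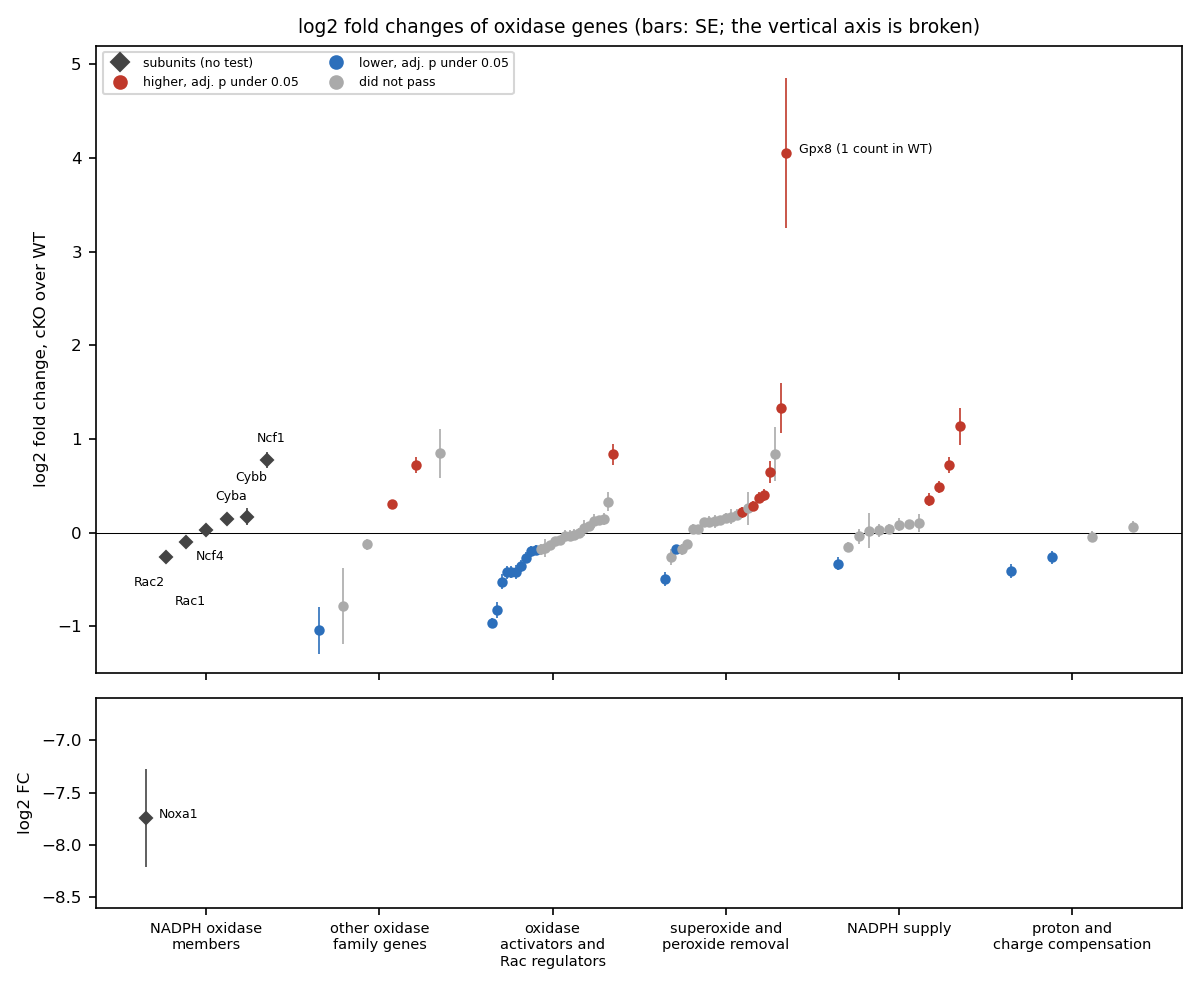
Log2 fold change of cKO over WT (bars are SE) for the 7 oxidase genes (diamonds, without a test) and for the tested genes of 5 lists of related genes, coloured by edgeR's call at an adjusted p under 0.05. The vertical axis is broken to show Noxa1 at -7.75, and Gpx8, at 4.05, rests on 1 count over the WT libraries, so its size depends on the prior count.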

How the data were processed

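RNA sequencing libraries of mouse splenic Treg cells, 2 cKO and 2 WT, were analysed from the authors' deposited table of raw read counts per gene. The submitters' processing notes name the build mm10. No source used here names an aligner, a counter, an annotation or whether strand was used, and a read in an overlap of 2 genes may belong to either. Genes were filtered with edgeR 4.0.16 (minimum count 10, minimum total 15), scaled by TMM and tested with its quasi-likelihood test with Benjamini-Hochberg adjustment at 0.05. SEs were obtained from each log2 fold change and its F statistic. Intervals and floors (3 counts) cover counting error only. Exon lengths, from GENCODE M21, covered 17932 of 20837 genes and all 7 oxidase genes. They replace the RefSeq exon lengths first planned. The test was also run on simulated data. Alternatives were other scalings and filters, DESeq2 1.42.0, limma-voom 3.58.1, a replicate block and leaving out each library.

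The 7 genes and all lists were chosen with earlier results of these data known. The text names the 7 genes and up to 4 called genes with the smallest p in each other list. It also names those not passing where they are 5 or fewer, the 3 ranked genes most similar to Noxa1, and Gng12 for Ncf1. Further genes (Sod1, H6pd, Ly6g, Lyz2, Foxp3, Gm42031, Nrarp) were named after their values were seen. So were the regulators Arhgap25, Chn2, Prex1, Bcr, Abr, Vav1 and Prkcb. Some listed genes counted in the totals are not reported here by name.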

Additional observations from a re-analysis of the deposited data

How the results depend on the processing

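The count of genes that differed at an adjusted p under 0.05, 4380 with edgeR, was 2876 with DESeq2 and 1869 to 2747 without 1 library. Upper-quartile scaling gave 2546 higher and 1877 lower, and RLE scaling 2133 and 2212. Same-numbered libraries of the 2 groups deviated in opposite directions from their group means (r = -0.323 across 13861 genes, which are not independent replicates), so the numbers were not taken as pairs. With a replicate block 2292 genes differed, with 5 in the removal list and 1 in the charge list. With the numbers crossed, an alternative chosen after seeing the data, 6713 genes differed, with 5 in the other oxidase family, 17 regulators and 18 removal genes. Without 1 library, calls numbered 1 to 2 in the other family, 7 to 8 among regulators, 4 to 6 in the removal list, 2 to 5 in NADPH supply and 1 to 2 in the charge list.

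The Noxa1 log2 fold change was -8.08 with DESeq2, -7.27 with limma-voom, -5.78 with a prior count of 2 and -10.13 to -6.78 without 1 library. These are fitted values and no bounds, and with a filter of 5 CPM Noxa1 was not tested. Rac2 measured -0.28 with RLE scaling and with DESeq2 and -0.23 with upper-quartile scaling. Ncf4 changed sign to -0.0055 without WT 2 and -0.0099 without cKO 2, in a range of -0.0099 to 0.0516. Of 90 values of the 7 genes under an alternative, 80 moved by less than 1 SD, 8 moved by more and 2 changed sign. Here the SD is the square root of the summed variances of log2 CPM (with a small offset) in the 2 groups, from 2 libraries each. The 90 include the crossed numbers, chosen after seeing the data. Of 387 values of 33 other genes, 317 kept the call, 70 lost it and 0 changed sign. With 2 libraries a group, differences near the size of those of Cybb, Ncf4 and Rac1 lie close to the spread between libraries, and genes as low as Nox1 carry too few counts to resolve such differences.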
